A study of Mus musculus with 18 samples.

Results

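Hox paralogue groups 7 and 8 are the genes of the central trunk in the 4 mammalian Hox clusters, and the mouse has 5 of them: Hoxa7 and Hoxb7 in group 7, and Hoxb8, Hoxc8 and Hoxd8 in group 8. They were taken by gene symbol from a table of 53465 genes, which also holds the other 34 of the 39 Hox genes. The study sequenced poly(A) RNA of mouse embryos at embryonic day 9, and cut each of 9 embryos into an anterior and a posterior piece to give 18 libraries. The posterior piece held the axial bud, where the axis elongates, with the 10 to 12 newest somites. The anterior piece held the rest of the axis that bears somites, and the head was left out. The 5 control embryos had 20 to 24 somites (23, 20, 24, 21 and 23 in controls 1 to 5). In the 4 double knockout (DKO) embryos, Meis1 and Meis2 had been deleted conditionally with Delta1Cre, a Cre recombinase driven by the Notch ligand gene Delta1, and these had 22, 24, 20 and 23 somites in DKO 1 to 4. The alleles of the controls, the strain and the cells in which Cre was active were not given in the sources used here. The study looked for targets of Meis in the patterning of the skeleton along the axis, and analysed the pieces separately to tell early patterning from somite differentiation.

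Hox proteins bind DNA through a homeodomain of 60 residues, and tell the cells of the axis which level of the body they belong to. Genes at one end of a cluster are switched on earlier and further forward, and genes at the other end later and further back, so groups 7 and 8 lie between the cervical and upper thoracic genes and the lumbar and tail genes. Their proteins carry a short YPWM motif in front of the homeodomain that binds the cofactors Pbx, and Meis proteins join these complexes. Group 8 genes are known for roles in the thoracic skeleton, in the placing of the forelimb and in spinal motor neurons. Caudal (Cdx) proteins, Wnt, Fgf and Gdf11 signals and retinoic acid are known to act on the trunk Hox genes.

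The homeobox sequences of Hoxb7 and the group 8 genes are shown because they tell the 2 groups apart and show how far reads of 61 bp can separate the genes. All 4 lie in exon 2 of the named transcripts of GENCODE M21 (build GRCm38), and the capitals mark the codons of residues 42 to 58 of the homeodomain, which include the recognition helix. The positions are chr11:96289385-96289564 (plus strand) for Hoxb7, chr11:96284174-96284353 (plus) for Hoxb8, chr15:102992571-102992750 (plus) for Hoxc8 and chr2:74706525-74706704 (plus) for Hoxd8.
Hoxb7: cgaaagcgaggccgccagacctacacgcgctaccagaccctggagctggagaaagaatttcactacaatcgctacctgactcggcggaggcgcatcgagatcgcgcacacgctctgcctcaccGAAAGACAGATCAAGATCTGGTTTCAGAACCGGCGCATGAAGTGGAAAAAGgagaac
Hoxb8: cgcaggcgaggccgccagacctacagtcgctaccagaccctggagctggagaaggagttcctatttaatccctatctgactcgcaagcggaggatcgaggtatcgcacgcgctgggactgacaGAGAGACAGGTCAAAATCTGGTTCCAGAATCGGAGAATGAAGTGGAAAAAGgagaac
Hoxc8: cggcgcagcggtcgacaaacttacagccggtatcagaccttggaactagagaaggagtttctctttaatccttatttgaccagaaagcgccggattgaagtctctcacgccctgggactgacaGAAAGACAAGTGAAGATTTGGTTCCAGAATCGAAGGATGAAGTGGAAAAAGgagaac
Hoxd8: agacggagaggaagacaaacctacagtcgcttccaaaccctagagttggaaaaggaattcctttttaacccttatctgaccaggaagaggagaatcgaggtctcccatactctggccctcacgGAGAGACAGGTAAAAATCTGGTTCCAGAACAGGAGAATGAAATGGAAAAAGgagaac

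Within group 8 the pairs had 59 (Hoxb8 and Hoxc8), 57 (Hoxb8 and Hoxd8) and 56 (Hoxc8 and Hoxd8) of 60 homeodomain residues in common. Between Hoxb7 and the group 8 genes it was 48 to 49 of 60, or 80.0% to 81.7%. The 17 residues encoded by the capitals were identical within group 8, and 16 of 17 were identical between Hoxb7 and each group 8 gene. The DNA had moved further apart than the proteins: 69.4% to 80.6% of the 180 bases were identical between any pair of the 4, and the longest identical run was 26 bases, shorter than a read. No stretch of 61 bases of Hoxb7, Hoxb8, Hoxc8 or Hoxd8 occurs in the transcripts of another gene. For Hoxa7, 526 of 2867 such stretches (18.3%) occur in Hoxaas3, an antisense transcript that overlaps 586 bp of its exons. Whether reads were counted by strand was not given in the sources used here, so the counts of Hoxa7 and Hoxaas3 are uncertain. The predicted proteins of Hoxb7, Hoxb8, Hoxc8 and Hoxd8 have 217, 243, 242 and 289 residues, with the YPWM motif at residues 127, 135, 139 and 184.

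In the annotation, Hoxa7 (ENSMUSG00000038236) spans 52214491 to 52221854 on the minus strand of chromosome 6, and Hoxd8 (ENSMUSG00000027102) spans 74704615 to 74707933 on the plus strand of chromosome 2. Hoxb8 (ENSMUSG00000056648) and Hoxb7 (ENSMUSG00000038721) are neighbours on the plus strand of chromosome 11, from 96281905 to 96285315 and from 96286623 to 96290162. Hoxc8 (ENSMUSG00000001657) spans 102990607 to 102994111 on the plus strand of chromosome 15. The spans of Hoxc8 and Hoxd8 overlap those of Hoxc5 and the antisense gene Hoxd3os1, with 0 bp of exon shared.

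Total expected counts ranged from 12650973 to 38180348 per library, so 3 counts, the floor used here, were worth 0.0786 to 0.237 CPM before scaling between libraries. All other CPM values are expected counts scaled to the total of each library and between libraries by TMM, a factor for RNA composition. The anterior library of control 3 had the lowest total. The labels give 9 embryos and do not say which shared a litter. The sex label of control embryo 1 (female) went against its RNA: Xist was at 0.201 and 0.34 CPM in its 2 pieces, and at 404 CPM or more in the other female embryos. No call on the 5 genes changed when control embryo 1 was left out. The deleted genes were lower in DKO: Meis2 averaged 190 ± 10 CPM (SD, n = 5) in anterior controls and 143 ± 11.3 CPM (n = 4) in anterior DKO, or −0.41 on the log2 scale (SE 0.0608, adjusted p = 0.0522), and Meis1 went from 125 ± 8.63 to 102 ± 9.51 CPM (−0.30, SE 0.0692). In the posterior pieces Meis2 went from 143 ± 16.7 to 99.4 ± 11.3 CPM (−0.52, SE 0.0983) and Meis1 from 84.4 ± 15.2 to 57.5 ± 11.8 CPM (−0.55, SE 0.158). None of these 4 differences passed the threshold, and reads may still come from transcripts that lack a deleted exon. This was not tested, and the cells in which Cre was active were not given. Of 8 axial bud markers 8 were higher in the posterior piece in either genotype, and their summed level was 23.4 to 36.2 CPM in the anterior and 292 to 559 CPM in the posterior libraries.

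The comparison of the pieces asked how the 5 genes differ between the elongating end of the axis and the older trunk. In control embryos 5 of 5 genes were higher in the posterior piece at an adjusted p below 0.05, where 12.1% of the 15294 genes tested were. In DKO embryos 4 of 5 were, against 8.76% of 15777 genes, and the exception was Hoxb8. These fits did not pair the 2 pieces of each embryo. With the embryo as a block, Hoxb8 passed in DKO as well. The size of the difference was spread widely: log2 fold changes in controls ran from 0.52 for Hoxb8 over 1.56 for Hoxb7, 2.05 for Hoxa7 and 2.80 for Hoxc8 to 3.33 for Hoxd8. The median over the 5 was 2.05 in controls and 2.31 in DKO, beside −0.01 and 0.01 over all genes tested. In these bulk pieces, fewer cells that express a gene and less RNA per cell cannot be told apart.

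**Figure D1:**
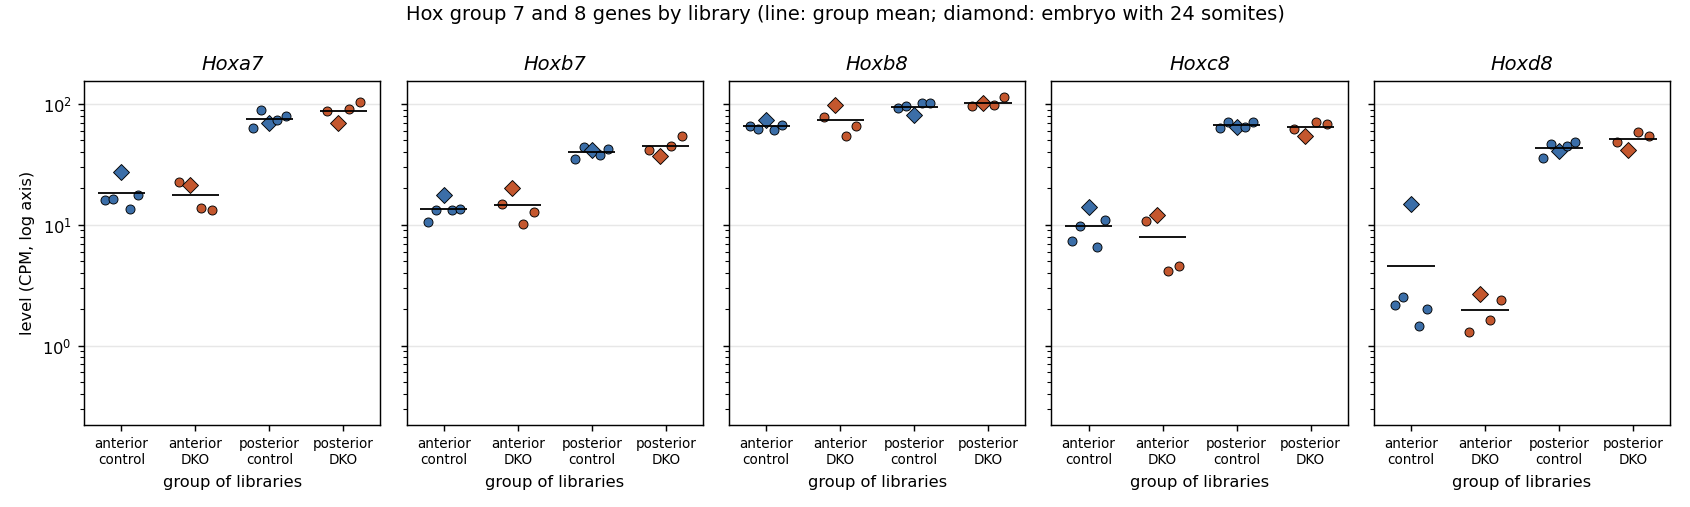
Levels of the 5 genes in each library, in CPM on a log axis, by region and genotype. Each point is a library (diamonds are the embryos with 24 somites) and each line the mean of its group. The posterior groups lie above the anterior groups for Hoxa7, Hoxb7, Hoxc8 and Hoxd8 and overlap in DKO for Hoxb8, and for Hoxd8 anterior control 3 stands at 14.8 CPM.

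Hoxa7, a group 7 gene of the HoxA cluster, was at 16.1, 16.2, 27.5, 13.6 and 17.8 CPM in anterior controls 1 to 5 and at 63.1, 88.4, 69.3, 73.1 and 79.8 CPM in posterior controls 1 to 5. In DKO 1 to 4 it was at 22.4, 21.2, 13.8 and 13.3 CPM anteriorly and at 87.6, 69.5, 91.3 and 103 CPM posteriorly. Every posterior library lay above every anterior one, and anterior control 3 was the highest anterior library. The posterior level was 4.13-fold higher in controls (log2 2.05, SE 0.162, adjusted p = 1.87e-06) and 4.96-fold in DKO (log2 2.31, SE 0.189). Hoxaas3, with which Hoxa7 shares exonic sequence, also differed, with log2 fold changes of 3.26 (SE 0.192, adjusted p = 2.03e-07) and 3.75 (SE 0.277, adjusted p = 1.36e-05).

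Hoxb7, its paralogue in the HoxB cluster, was at 10.5, 13.2, 17.6, 13.2 and 13.6 CPM in anterior controls and at 35.1, 43.7, 41.5, 38.1 and 42.2 CPM in posterior controls. The DKO values were 14.8, 20.3, 10.2 and 12.8 CPM anteriorly and 42, 37.4, 45.1 and 54 CPM posteriorly. The regions did not overlap, and both anterior libraries of embryos with 24 somites were the highest of their genotype. The posterior level was 2.96-fold higher in controls (log2 1.56, SE 0.115, adjusted p = 1.04e-06) and 3.07-fold in DKO (log2 1.62, SE 0.192).

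Hoxb8 lies next to Hoxb7 in the cluster and had the flattest profile of the 5. It was at 66.1, 61.7, 73.2, 60.8 and 67.5 CPM in anterior controls and at 92.3, 96.3, 81.2, 101 and 102 CPM in posterior controls, which did not overlap. In DKO it was at 78.4, 98.4, 54.4 and 66.2 CPM anteriorly and at 96.6, 101, 98.1 and 115 CPM posteriorly, and anterior DKO 2 lay within the posterior range. The difference was 1.44-fold in controls (log2 0.52, SE 0.0701, adjusted p = 0.000126) and 1.38-fold in DKO (log2 0.47, SE 0.155, adjusted p = 0.0639). With the embryo as a block, which pairs the 2 pieces of each embryo, the DKO value was 0.50 (SE 0.133, adjusted p = 0.0323) and passed the threshold. Leaving out 1 embryo gave 0.35 to 0.64: without DKO embryo 2 it was 0.64 and passed (adjusted p = 0.0157), and without DKO embryo 4 it was 0.35 (adjusted p = 0.25).

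Hoxc8, the group 8 gene of the HoxC cluster, was at 7.36, 9.79, 14, 6.55 and 10.9 CPM in anterior controls and at 63.5, 70.7, 64.4, 65 and 71.3 CPM in posterior controls. In DKO it was at 10.7, 12.1, 4.15 and 4.59 CPM anteriorly and at 61.6, 54.7, 71.5 and 67.9 CPM posteriorly. Its posterior levels lay close together, with an SD of 3.74 CPM about a mean of 67 CPM in controls, while anterior DKO 3 and 4 lay well below anterior DKO 1 and 2. The posterior level was 6.95-fold higher in controls (log2 2.80, SE 0.159, adjusted p = 1.56e-07) and 8.05-fold in DKO (log2 3.01, SE 0.306).

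Hoxd8, the group 8 gene of the HoxD cluster, was at 2.15, 2.52, 14.8, 1.44 and 2.01 CPM in anterior controls and at 35.5, 47, 40.6, 45 and 48.1 CPM in posterior controls. In DKO it was at 1.29, 2.67, 1.62 and 2.38 CPM anteriorly and at 48.7, 41.9, 59.1 and 54.1 CPM posteriorly. Of the 9 anterior libraries, 8 lay at or below 2.67 CPM and anterior control 3 stood apart. The posterior level was 10.1-fold higher in controls (log2 3.33, SE 0.51, adjusted p = 0.000375) and 25.9-fold in DKO (log2 4.70, SE 0.216, adjusted p = 7.97e-07). Without control embryo 3 the control value was 4.41 (SE 0.165, adjusted p = 1.61e-07), close to that of the DKO embryos.

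Within each embryo the posterior piece had the higher log2 CPM in 9 of 9 embryos for each of the 5 genes. The order of the differences was also the same in nearly all: Hoxb7 exceeded Hoxb8, Hoxa7 exceeded Hoxb7 and Hoxc8 exceeded Hoxa7 in 9 of 9 embryos, and Hoxd8 exceeded Hoxc8 in 8 of 9, all but control embryo 3. Over the 9 embryos, the difference averaged 0.51 ± 0.29 (SD) for Hoxb8, 1.60 ± 0.39 for Hoxb7, 2.18 ± 0.50 for Hoxa7, 2.97 ± 0.68 for Hoxc8 and 4.19 ± 1.12 for Hoxd8. The HoxB genes were lowest and Hoxc8 and Hoxd8 highest, so that the group 8 genes held both ends of the order. By these means Hoxb7 lay nearer to its paralogue Hoxa7 than to its cluster neighbour Hoxb8. Hoxb7 and Hoxb8 are the only genes of the 5 that share a cluster. Whether the order goes with cluster or with group therefore cannot be read from them, and was not tested.

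**Figure D2:**
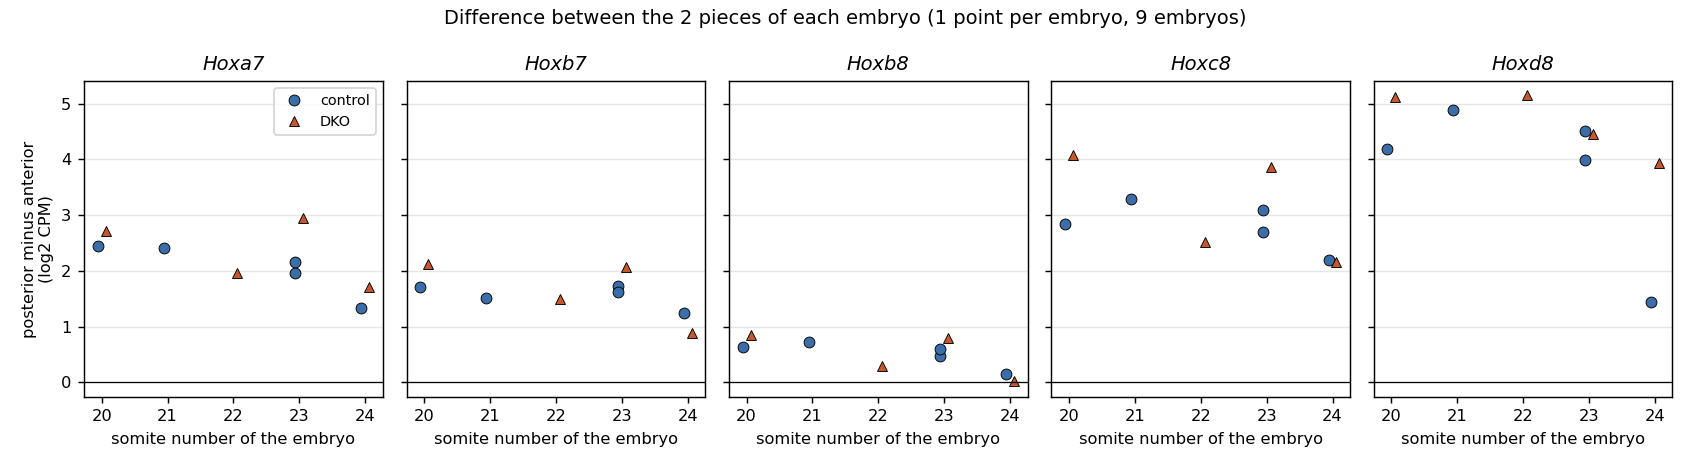
Difference between the posterior and the anterior piece of each embryo, in log2 CPM, against the number of somites of the embryo, for the 5 genes. Each point is 1 of 9 embryos, circles for controls and triangles for DKO. All points lie above 0, and the embryos with 24 somites hold the lowest 2 of the 9 values for each gene.

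Levels between genes were compared per kb of exon. In anterior controls Hoxb8 was highest at 25 ± 1.9 CPM per kb (SD, n = 5), followed by Hoxb7 at 8.82 ± 1.64, Hoxa7 at 6.34 ± 1.88, Hoxc8 at 3.43 ± 1.05 and Hoxd8 at 1.67 ± 2.09. The range of Hoxb8 did not overlap that of any other gene, whereas the ranges of each later neighbour in this order overlapped. These overlaps rest on control 3: in the other 4 anterior controls Hoxb7 was at 6.82 to 8.8, Hoxa7 at 4.72 to 6.2, Hoxc8 at 2.31 to 3.86 and Hoxd8 at 0.523 to 0.917 CPM per kb, with no overlap. The mean of Hoxd8 was then 0.739 ± 0.164 CPM per kb (SD, n = 4). Anterior DKO libraries gave the same order, from 28.2 ± 7.18 (n = 4) for Hoxb8 to 0.725 ± 0.236 CPM per kb for Hoxd8. In posterior controls the 5 genes were closer to each other: Hoxb8 at 35.9 ± 3.22, Hoxb7 at 26.0 ± 2.27, Hoxa7 at 26.0 ± 3.4, Hoxc8 at 23.7 ± 1.33 and Hoxd8 at 15.7 ± 1.89 CPM per kb. There the ranges of Hoxb7, Hoxa7 and Hoxc8 overlapped. Within each of these libraries Hoxb7 lay above Hoxc8, by the least in control 1 (22.7 against 22.4 CPM per kb). Divided by the longest transcript in place of all exons, Hoxa7 stood first in the posterior groups and the anterior order was unchanged.

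Of the length-scaled sum of the 5 genes, Hoxb8 made up 55.9 ± 5.43% (SD, n = 5) in anterior controls and 28.3 ± 2.05% in posterior controls. The shares of Hoxc8 and Hoxd8 were larger in the posterior piece: Hoxc8 made up 7.48 ± 1.25% anteriorly and 18.6 ± 0.638% posteriorly, and Hoxd8 3.24 ± 3.32% and 12.3 ± 0.645%. Without control 3 the anterior share of Hoxd8 was 1.76 ± 0.368% (SD, n = 4). Hoxb7 had nearly the same share in both pieces, 19.5 ± 1.89% and 20.4 ± 1.25%, and Hoxa7 went from 13.8 ± 1.5% to 20.4 ± 1.2%. The DKO shares of Hoxb8 were 59.9 ± 1.75% (n = 4) and 28.1 ± 2.47%. For Hoxc8 the posterior share was 18 to 19.5% in controls and 15.1 to 17.4% in DKO, without overlap. The shares of the other genes, and that of Hoxc8 anteriorly, overlapped between genotypes, and no share was tested. The ranges of Hoxb8 did not overlap between the regions.

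By paralogue group, the median of groups 7 and 8 lay between those of the groups before and after. The median log2 fold change of posterior against anterior in controls was 0.47 over the 6 genes of groups 5 and 6, with 4 higher and 2 lower at the threshold, 2.05 over groups 7 and 8, and 5.23 over the 7 genes of groups 9 and 10, all of them higher. Without control embryo 3 these medians were 0.54, 2.26 and 6.73. In DKO the medians of groups 5 and 6 and of groups 7 and 8 were 0.59 and 2.31, and 7 of 7 genes of groups 9 and 10 were higher. Of the 31 other Hox genes tested in controls, 20 were higher and 6 lower in the posterior piece (median 1.68). In DKO 21 were higher and 5 lower of 32 tested (median 1.94).

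The nearest neighbours differed by cluster. In HoxA, the control values were 2.40 for Hoxa6, 2.05 for Hoxa7 and 4.50 (SE 0.515) for Hoxa9, which was at 5.56 (SE 0.202) without control embryo 3. In DKO Hoxa6 was at 1.97 (SE 0.29), Hoxa7 at 2.31 and Hoxa9 at 5.55, so the order of Hoxa6 and Hoxa7 was not the same in both genotypes. In HoxB they were 0.46 for Hoxb6, 1.56 for Hoxb7, 0.52 for Hoxb8 and 1.12 for Hoxb9, so that Hoxb7 had the largest value of these 4. In HoxC they were 2.30 for Hoxc6, 2.80 for Hoxc8 and 5.23 for Hoxc9. In HoxD, Hoxd4 was at 0.02 (SE 0.113, not past the threshold), Hoxd8 at 3.33 and Hoxd9 at 3.85 (SE 0.83). The last 2 rest on control embryo 3: without it Hoxd8 was at 4.41 (SE 0.165) and Hoxd9 at 6.73 (SE 0.261), beside 4.70 and 8.08 in DKO. Hoxd4, the next gene of its cluster in front of Hoxd8, was at 58.3 ± 4.72 CPM (SD, n = 5) anteriorly and 59.3 ± 10.9 CPM posteriorly in controls, where Hoxd8 went from 4.59 ± 5.74 (2.03 ± 0.448 without control 3, n = 4) to 43.2 ± 5.19 CPM.

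**Figure D3:**
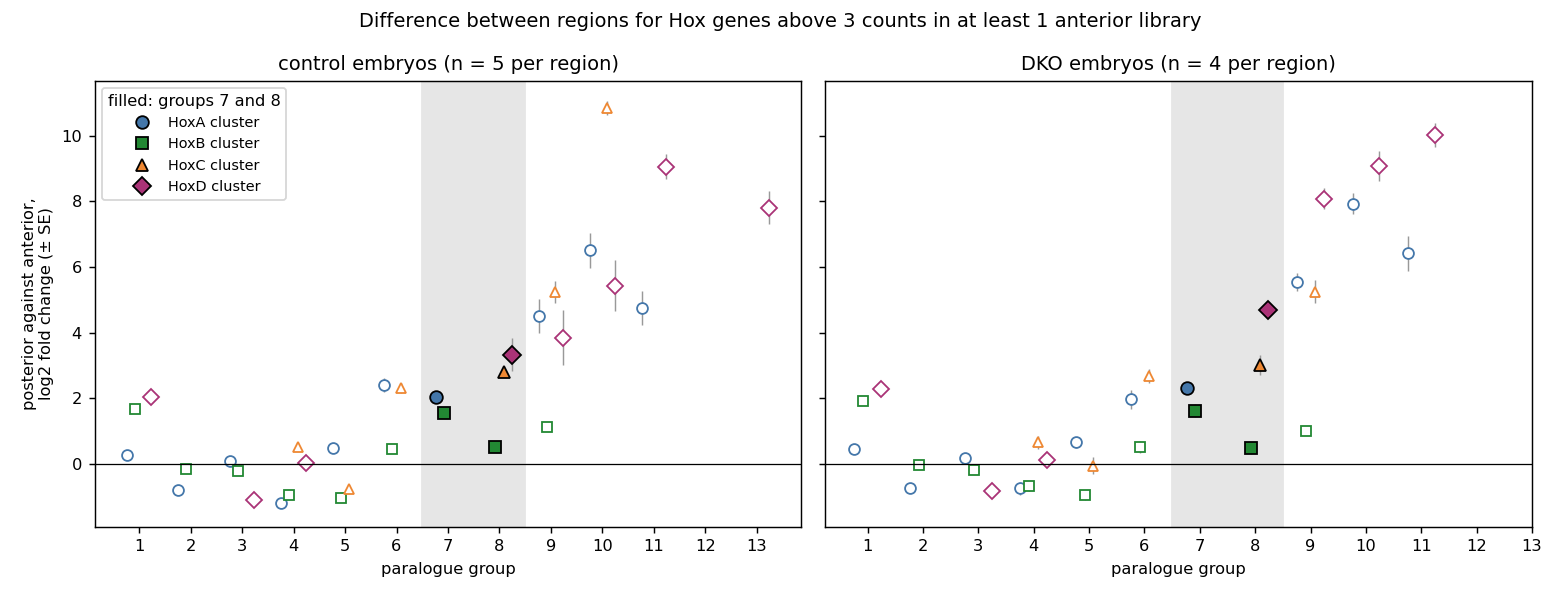
Log2 fold change of the posterior against the anterior piece (± SE) for the Hox genes of each paralogue group, in control and DKO embryos, with the cluster as symbol and groups 7 and 8 filled. Genes with at most 3 counts in every anterior library are not drawn (3 in controls, 6 in DKO). The HoxB genes of groups 6 to 9 stay at or below 1.62.

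The anterior library of control 3 stood apart for Hoxd8. The 5 genes summed to 147 CPM there, above the 95.6 to 112 CPM of the other anterior controls and within the 84.2 to 155 CPM of anterior DKO. It was the highest of the 5 anterior controls for 5 of 5 genes, and the highest of all 9 anterior libraries for Hoxa7, Hoxc8 and Hoxd8. Other Hox genes were counted if they had more than 3 counts in at least 1 anterior library, control 3 included. It was the highest of the 9 for 8 of 10 such genes of groups 9 to 13, and for 1 of 18 of groups 1 to 6. Of these 8, Hoxd13 entered only through control 3, with 11 counts there and at most 1 elsewhere. Hoxd11 was near the floor, with 4.43 counts against at most 3.45. The share of all genes that were highest in this library was not counted. Anterior DKO 2, also of 24 somites, was the highest of the 9 for Hoxb7 and Hoxb8, for 6 of those 18 genes and for 1 of those 10. In anterior control 3, Hoxd9 was at 16.1 CPM, and it was at 0.0577 to 0.619 CPM in the other 8 anterior libraries, and Hoxa9 at 17.8 CPM against 1.44 to 4.32 CPM. Hoxb9 was at 147 CPM, within the 108 to 176 CPM of the others.

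Markers of lateral tissue were high in that library as well. The 8 markers of lateral plate and limb field summed to 136 CPM there, to 63.9 to 76.1 CPM in the other anterior controls and to 37.5 to 61.1 CPM in anterior DKO, and 5 of 8 were the highest of the 9 libraries. The forelimb field gene Tbx5 was at 12.2 CPM against at most 2.71 CPM. All 6 intermediate mesoderm markers were the highest there, with a sum of 27.7 CPM against 11.1 to 19.3 CPM in the other controls and 6.63 to 10.4 CPM in DKO, and none of these 14 markers was at 0. Of 6 endothelial markers 4 were also the highest there (sum 280 CPM, and 246 to 259 CPM in the other controls). The 8 axial bud markers summed to 23.4 CPM, the lowest of the 9 anterior libraries, but 1 of them, Cyp26a1, was the highest there (5.28 CPM against at most 4.21 CPM). The 2 at 0, Cdx4 and the bud marker Msgn1, had medians of only 0.054 and 0 CPM in the other libraries. The neural tube sum, 377 CPM, was also the lowest of the 9. The part of these tissues in the Hox values was not tested.

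**Figure D4:**
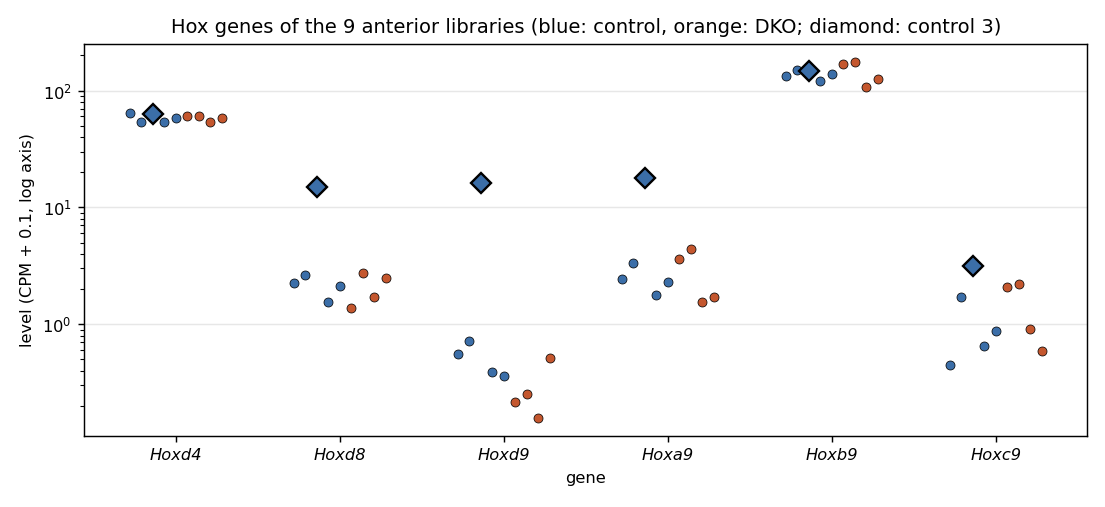
Levels of Hoxd4, Hoxd8 and 4 Hox genes of group 9 in the 9 anterior libraries, in CPM with 0.1 added, on a log axis. Each point is a library and the diamond is control 3. Control 3 lies above the other 8 libraries for Hoxd8, Hoxd9, Hoxa9 and Hoxc9 and among them for Hoxd4 and Hoxb9.

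The study's main comparison asked which genes change when Meis1 and Meis2 are deleted, and none of the 5 passed the threshold in either piece. In the anterior piece 0 of 5 did, where 0.0394% of the 15238 genes tested did, and 0 of 5 had an unadjusted p below 0.05, where 13% of genes did. In the posterior piece it was again 0 of 5, where 0.0126% of 15936 genes passed and 11% had an unadjusted p below 0.05. For 0 of 5 genes did the CPM levels of the genotypes separate without overlap, in either piece, while 5.08% of genes did so anteriorly and 4.27% posteriorly. DESeq2, a second count test, also called 0 of 5 in either piece, with no adjusted p given for anterior Hoxd8.

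The intervals show how large a change these samples leave room for. In the anterior piece the log2 fold change was −0.04 for Hoxa7 (95% interval −0.52 to 0.45), 0.10 for Hoxb7 (−0.32 to 0.51) and 0.18 for Hoxb8 (−0.12 to 0.48). For Hoxc8 it was −0.29 (−1.02 to 0.44). For Hoxd8 it was −1.17 (−2.63 to 0.28, SE 0.662, adjusted p = 0.491), and −0.04 (SE 0.274) without control embryo 3. Without that embryo the value of Hoxa7 was 0.16.

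In the posterior piece the intervals were narrower. The log2 fold change was 0.23 for Hoxa7 (−0.03 to 0.50), 0.15 for Hoxb7 (−0.08 to 0.39), 0.12 for Hoxb8 (−0.06 to 0.30), −0.07 for Hoxc8 (−0.25 to 0.11) and 0.24 for Hoxd8 (−0.01 to 0.49). For Hoxd8, posterior controls averaged 43.2 ± 5.19 CPM (SD, n = 5) and posterior DKO 51 ± 7.37 CPM (n = 4). The smallest adjusted p of the 5 was 0.468, for this gene. A posterior change of more than 1 log2 unit lies outside all 5 intervals, and in the anterior piece the intervals of Hoxc8 and Hoxd8 include a fall of 1.

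**Figure D5:**
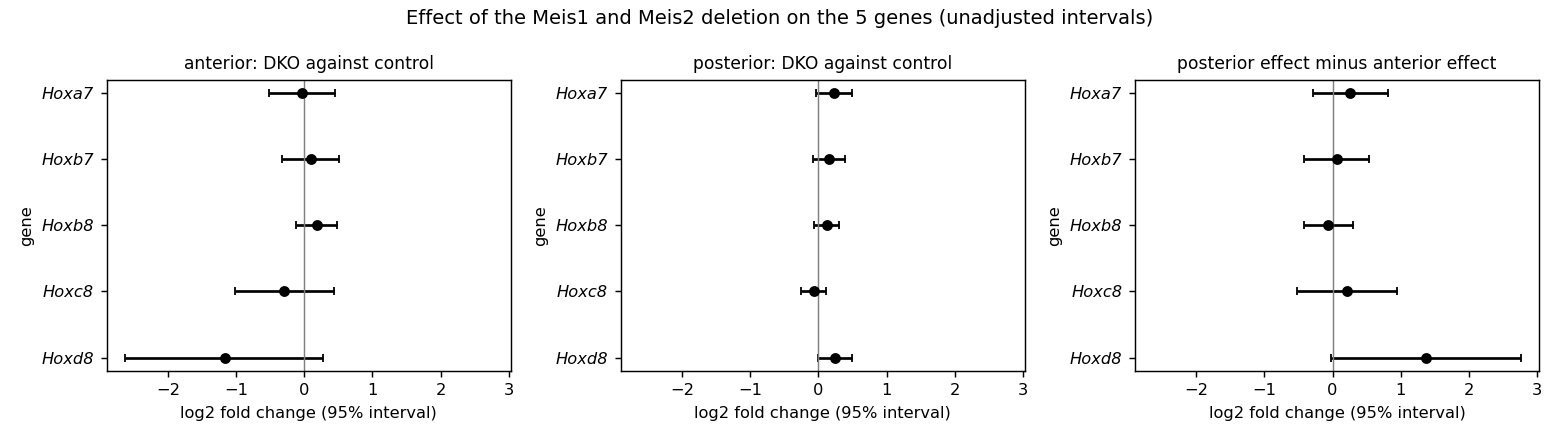
Log2 fold change of DKO against control for the 5 genes in the anterior piece and in the posterior piece, and the difference of these 2 effects. Points are estimates and bars unadjusted 95% intervals. All intervals include 0, and the widest is that of Hoxd8 in the anterior piece, from −2.63 to 0.28.

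Markers of other tissues were read in the same comparisons, and 0 genes of the 10 marker lists passed the threshold between genotypes in either piece. Some sums did not overlap all the same. The 8 neural tube markers summed to 377 to 477 CPM in anterior controls and 490 to 543 CPM in anterior DKO, and to 196 to 272 and 233 to 319 CPM in the posterior pieces, with 8 of 8 values positive in each. The 6 intermediate mesoderm markers summed to 11.1 to 27.7 CPM in anterior controls and 6.63 to 10.4 CPM in anterior DKO, and to 65.1 to 71.6 and 22.6 to 46.1 CPM in the posterior pieces, with 0 of 6 positive in each.

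The lateral plate and limb field sum was 63.9 to 136 CPM in anterior controls and 37.5 to 61.1 CPM in anterior DKO, with 0 of 6 tested genes positive (median log2 fold change −1.13), and 169 to 240 and 131 to 224 CPM in the posterior pieces, with 1 of 7 positive. In anterior DKO 1 of its 8 markers was at or under 3 counts in every library. Primitive erythroid markers had 0 of 6 positive values in the anterior piece and 6 of 6 in the posterior piece, where the sums were 1350 to 2180 CPM in controls and 1620 to 3360 CPM in DKO. Neural crest markers had 5 of 5 positive values in the anterior and 4 of 5 in the posterior piece, and endothelial markers 0 of 6 in both. Axial bud markers had 3 of 4 tested genes positive anteriorly and 8 of 8 posteriorly, and gut endoderm markers 4 of 5 and 5 of 6. Markers of the differentiating somite had 2 of 8 positive anteriorly and 1 of 8 posteriorly, with posterior sums of 96 to 140 CPM in controls and 66.4 to 129 CPM in DKO. Heart markers had 1 of 3 and 0 of 4 positive. Their part in the values of the 5 genes was not tested.

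Whether the effect of the deletion differed between the pieces was tested as the interaction of region and genotype over all 18 libraries. Of the 5 genes 0 passed, as did 0% of 16428 genes, and 0 of 5 had an unadjusted p below 0.05, where 3.45% of genes did. The difference of effects was 0.26 for Hoxa7 (95% interval −0.29 to 0.81), 0.06 for Hoxb7 (−0.42 to 0.53), −0.06 for Hoxb8 (−0.42 to 0.30) and 0.21 for Hoxc8 (−0.52 to 0.94). For Hoxd8 it was 1.37 (SE 0.661, −0.02 to 2.76, adjusted p = 0.999), and 0.27 without control embryo 3. DESeq2 called 0 of 5.

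Somite number is a measure of age at this stage, and by the labels it also sets what the anterior piece holds. With the 10 to 12 newest somites in the posterior piece, 8 to 10 somites are left in front in an embryo of 20 and 12 to 14 in an embryo of 24. The mean somite number was 22.2 in controls and 22.25 in DKO. With genotype in the fit, the slope per somite in the anterior piece was positive for 5 of 5 genes: 0.14 for Hoxa7, 0.12 for Hoxb7, 0.11 for Hoxb8, 0.19 for Hoxc8 and 0.45 for Hoxd8, in log2 units. It was positive for 50.8% of all genes tested and for 20 of 22 other Hox genes tested, so it was not particular to these 5. None of the 5 passed the threshold, as 0.0328% of genes did, and 3 of 5 had an unadjusted p below 0.05, where 12.9% of genes did.

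The 5 slopes come from the same 9 libraries and are not independent. Hoxb8 had the lowest p, an unadjusted 0.00583 (adjusted p = 0.187), and DESeq2 put it past the threshold (adjusted p = 0.0314). The slope of Hoxd8 was 0.10 without control embryo 3, and those of Hoxa7, Hoxb7, Hoxb8 and Hoxc8 were then 0.08, 0.10, 0.12 and 0.15. In the posterior piece the slopes were −0.07, −0.02, −0.01, −0.04 and −0.07 for Hoxa7, Hoxb7, Hoxb8, Hoxc8 and Hoxd8. There 0 of 5 passed the threshold, where 0.0126% of genes did, and 1 of 5, Hoxd8, had an unadjusted p below 0.05 (0.0451), where 6.42% did.

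The steps within embryos were also set beside somite number, with no test. The embryos with 24 somites, control 3 and DKO 2, had the lowest 2 differences of the 9 for each of the 5 genes. This was not particular to the 5. Of the neighbouring Hox genes, it also held for Hoxa9, Hoxb6 (0.10 and 0.06), Hoxc6 (1.54 and 1.93) and Hoxc9. It did not hold for Hoxa6, Hoxd4 and Hoxd9, and for Hoxb9 control 3 was level with DKO 1. The share over all genes was not counted. For Hoxb8 the differences were 0.15 and 0.03, where the other 7 embryos had 0.30 to 0.85. For Hoxc8 they were 2.20 and 2.16, where the others had 2.52 to 4.08. The largest steps of Hoxc8 were in DKO 3 (20 somites) and DKO 4 (23 somites), at 4.08 and 3.86.

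The pathway genes around the 5 were read from lists. Over all genes tested, 13.3% were lower in the posterior piece of controls and 9.7% in DKO, beside the 12.1% and 8.76% that were higher. Of 14 genes that signal to or act on trunk Hox genes, 9 were higher and 2 lower in the posterior piece of controls (median 1.24), and 8 and 2 in DKO. The largest were Cdx4 (9.57, with at most 8 counts in any anterior control) and Cdx2 (7.75), caudal factors, T (4.51), a transcription factor of the axial bud, and Cyp26a1 (3.68), which degrades retinoic acid. Of 9 TALE cofactors, the class of homeodomain proteins that binds DNA with Hox, 1 was higher and 6 were lower in controls (median −0.39), with Pbx3 at −0.92, Meis1 at −0.57 and Meis2 at −0.41. In DKO it was 1 higher and 5 lower. Of 20 chromatin regulators of the clusters, 0 were higher and 3 lower in controls: Bmi1 (−0.51), Phc2 (−0.19) and Ezh2 (−0.18), a share near that of all genes. In DKO Bmi1 alone passed the threshold (−0.61). In the comparisons of genotype 0 genes of these 3 lists passed.

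Among tissue markers, 6 of 6 intermediate mesoderm genes were higher in the posterior piece of controls. In the lateral plate and limb field list 5 of 8 were higher and 1 was lower. Of the neural tube genes 8 of 8 were lower, as were 6 of 8 of the differentiating somite. Of gut endoderm markers 4 of 6 were higher, with sums of 68.7 to 85.8 CPM anteriorly and 171 to 305 CPM posteriorly. Neural crest had 3 of 5 lower, endothelium 2 of 6 and heart 1 of 3, where 13.3% of all genes were lower, and 0 of 6 primitive erythroid markers passed. The neural tube sum was 377 to 477 CPM anteriorly and 196 to 272 CPM posteriorly. The part of these tissues in the regional difference of the 5 genes was not tested.

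The promoters of Hoxb8 and Hoxd8 are shown because these genes had the smallest and the largest step between the pieces. RefSeq promoters were found for 3 of the 5 genes, and the 250 bases before the start are given for build GRCm38.p6, both on the plus strand, at chr11:96281655-96281904 and chr2:74704365-74704614. The capitals mark exact matches on either strand to 4 short motifs: TTTATG (bound by Cdx), TGATNNAT (Pbx with Hox), TGACAG (Meis) and AGGTCA (nuclear receptors).
Hoxb8: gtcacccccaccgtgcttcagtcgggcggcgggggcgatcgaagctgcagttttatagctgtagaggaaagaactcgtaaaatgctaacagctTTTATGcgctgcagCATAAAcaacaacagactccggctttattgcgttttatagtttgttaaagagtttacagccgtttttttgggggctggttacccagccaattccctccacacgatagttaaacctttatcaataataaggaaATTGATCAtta
Hoxd8: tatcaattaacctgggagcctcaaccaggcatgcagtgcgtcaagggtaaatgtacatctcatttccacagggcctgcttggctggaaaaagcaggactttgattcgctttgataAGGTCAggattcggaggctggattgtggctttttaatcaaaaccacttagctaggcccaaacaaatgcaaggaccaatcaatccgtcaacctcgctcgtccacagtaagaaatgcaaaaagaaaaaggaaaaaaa

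The Hoxb8 window holds 2 matches to TTTATG, of which the second is on the other strand, and 1 to TGATNNAT on the other strand. The Hoxd8 window holds 1 match to AGGTCA and 0 to TTTATG. In the Hoxa7 window, which overlaps an exon of another Hoxa7 transcript, TTTATG was found at 2 places. TGACAG was found in 0 of the 3 windows. Of 32851 promoter windows of this length, 10.8% hold TTTATG, 7.68% TGATNNAT, 15.9% TGACAG and 14% AGGTCA, and none of the matches shown overlaps another. A match is a string of letters and not a measured site.

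Profiles over the 18 libraries were compared by Pearson correlation of log2 CPM, as a description, since all points share the contrast of regions. Among protein-coding genes with a mean of at least 50 counts, the closest to Hoxa7 were Hoxc6 (0.99), Hoxa9 (0.989) and Hoxc9 (0.985), and the closest to Hoxc8 were Hoxc6 (0.988), Hoxa7 (0.985) and Hoxa9 (0.983). Those of Hoxd8 were Hoxd9 (0.99), the Fgf-responsive factor Etv4 (0.989) and Hoxa9 (0.987). Those of Hoxb7 were Tesk2 (0.984), Hoxa7 (0.984) and Hoxc6 (0.983), and those of Hoxb8 the Notch ligand gene Dll3 (0.929), Stard3nl (0.916) and Hoxb6 (0.916). Hoxb8 had the lowest values of the 5. Ranked by Spearman's rho, 0 of these 3 genes were among the closest 3 of Hoxb8, and 0 of 3 for Hoxc8, 1 of 3 for Hoxd8 and 2 of 3 for Hoxa7 and for Hoxb7 were.

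With the mean of each of the 4 groups removed, what is left is the variation between embryos and libraries. Hoxa7 was then closest to Hoxc8 (0.864), Hoxa9 (0.862) and Hoxc6 (0.832), and Hoxc8 to Hoxc6 (0.866), Hoxa7 (0.864) and Hoxb9 (0.854). Hoxd8 was closest to Hoxd9 (0.956), Lix1 (0.909) and Etv4 (0.88). Hoxb8 was closest to Hes6 (0.889), a bHLH factor of neurogenesis, to Tnnt1 (0.878), a skeletal muscle troponin, and to Hoxc4 (0.867), and Hoxb7 to Stard3nl (0.847), Gskip (0.823) and Tesk2 (0.819). Among the 5 genes themselves, Hoxa7 and Hoxc8 had 0.864, Hoxb7 and Hoxc8 0.814, Hoxb8 and Hoxd8 0.355, Hoxc8 and Hoxd8 0.44, and Hoxa7 and Hoxd8 0.635. Without the libraries of control embryo 3 (16 libraries left), the values of Hoxd8 were 0.701 with Hoxd9, 0.498 with Lix1 and 0.642 with Etv4, and 0.238 with Hoxa7, 0.231 with Hoxc8 and 0.355 with Hoxb8. By Spearman's rho 3 of 3 of the closest genes were the same for Hoxa7, 2 of 3 for Hoxd8 and 1 of 3 for each of the others. The 2 libraries of an embryo are not independent points.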

How the data were processed

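Per the submitters' processing notes, reads were handled with CASAVA, cutadapt and RSEM on GRCm38. The deposited values are RSEM expected counts per gene, made by the authors without scaling between libraries. The aligner and the use of strand were not given in the sources used here. Of 53465 gene identifiers 53360 were found in GENCODE M21, which gave symbols and lengths. Counts were rounded, filtered with filterByExpr (minimum count 10, minimum total 15), scaled by TMM and tested over all genes with edgeR 4.0.16 (glmQLFit and glmQLFTest, R 4.3.3). P-values were adjusted by Benjamini-Hochberg with a threshold of 0.05. A prior count of 2 entered log2 CPM. The 2 pieces of an embryo were recognised by shared genotype, somites and labelled sex. With group means removed, they correlated over genes at 0.256 to 0.57 (9 pairs) and pieces of different embryos at −0.283 to 0.0916. Named were the 5 genes, Meis1, Meis2, the neighbouring Hox genes, the 3 closest profiles and up to 4 genes per list (largest change past the threshold, mean of at least 50 counts). The choice of Tbx5, Xist, Hoxaas3, Hoxd11, Hoxd13 and Msgn1 was made with their values in view. The genes and lists were chosen with earlier results of these data known. Alternatives were DESeq2 1.42.0, limma-voom (limma 3.58.1), other scalings, filters and covariates, the embryo as a block, and leaving out each embryo. The tests were checked on simulated data. Some items are not reported here.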

Additional observations from a re-analysis of the deposited data

Results flagged for a closer look

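One value stood far from its group. Hoxd8 in the anterior library of control 3 was at 14.8 CPM, where the other 4 anterior controls were at 1.44 to 2.52 CPM, a gap larger than Dixon's test allows for a group of 5. This was tested for each of the 5 genes in each of the 4 groups, 20 tests in all, and chance marks about 1 in 20. Without it the anterior controls averaged 2.03 ± 0.448 CPM (SD, n = 4), beside 1.99 ± 0.648 CPM in the anterior DKO libraries.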

How the results depend on the processing

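Of 545 log2 values of the 5 genes recomputed under an alternative, 521 kept their direction and side of the threshold, 7 newly passed it and 15 changed sign. The other 2 are Hoxd8 under DESeq2, in control regions and in the anterior genotype comparison, which kept their direction and were given no adjusted p. Hoxb8 between regions of DKO passed under DESeq2 (adjusted p = 0.0171), limma-voom (0.042), no filter (0.0305), the embryo as a replicate block (0.0323), all 18 libraries (0.0115) and without DKO embryo 2 (0.0157), with a range of 0.0115 to 0.25. The block changed no other call. For the anterior somite slope DESeq2 called 1 of the 5 genes (Hoxb8) and 356 genes in all, where edgeR called 0 and 5. All changes of sign were in values whose test did not pass. Anterior Hoxa7 was 0.02 with limma-voom and 0.02 with the embryo as a random block, and −0.18 to 0.16 without 1 embryo. Without 1 embryo, anterior Hoxb7 was −0.10 to 0.23 and posterior Hoxc8 −0.13 to 0.00. The interaction was −0.11 to 0.33 for Hoxb7, −0.17 to 0.12 for Hoxb8 and −0.04 to 0.54 for Hoxc8, and the posterior somite slope −0.03 to 0.02 for Hoxb8 and −0.04 to 0.01 for Hoxb7. The cause was not tested. Over all genes, calls between regions of DKO ranged from 1728 to 3563. DESeq2 called 296 genes in the anterior and 161 in the posterior comparison of genotypes, 10 for the interaction and 147 for the posterior slope, where edgeR called 6, 2, 0 and 2. In control regions DESeq2 called 4 of the 5 genes. The SE of anterior Hoxd8 between genotypes was 0.662, and 0.274 without control embryo 3.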
